A study of Mus musculus with 6 samples.

Results

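The genes described are 10 Eph receptors and ephrins, namely the receptors *Epha3*, *Epha4*, *Epha5*, *Epha7*, *Ephb2* and *Ephb3* and the ephrins *Efna2*, *Efna5*, *Efnb1* and *Efnb2*. They were taken by gene symbol from the 32286 genes of the count matrices, and each symbol had 1 row. Single-cell RNA-seq was performed on digits in a dish (DID) cultures, in which limb bud cells are plated at high density and form cartilage, tendon, bone and other tissues of the hand in a dish. The cultures were seeded with dissociated cells of the distal forelimb mesenchyme of wildtype CD-1 mouse embryos at E11.5, pooled across embryos, and were kept in medium with fetal bovine serum. The groups are Day 2, Day 7 and Day 10 of culture with 2 independent cultures each (replicates A and B). All 6 libraries share strain, genotype, tissue and medium and differ by design only in the days of culture. The limits used to keep cells also differed between days. None of the 6 libraries was made from the limb bud itself or carries an engineered allele or a test compound.

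Eph receptors form the largest family of receptor tyrosine kinases, and their ligands, the ephrins, are themselves bound to the surface of the neighbouring cell. A-class ephrins are held by a lipid anchor and B-class ephrins cross the membrane, and on contact a signal can pass into the receptor cell and into the ephrin cell, most often leading to repulsion, sorting or altered adhesion. In the limb bud they are known for the sorting of mesenchymal cells, the formation of condensations and the guidance of motor axons. Receptors of a class bind mainly ephrins of the same class, with EphA4, which also binds B-class ephrins, as a known exception.

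Deposited barcodes numbered 11518 to 20188 per library, of which 9448 to 16486 were kept with 178022112 to 260245417 unique molecular identifiers (UMIs, counted molecules). Median depth ranged from 3871 UMIs per cell in Day 2 replicate B, where 41.4% of cells were under 3000 UMIs, to 24197 in Day 10 replicate A. Pairs of libraries shared 24 to 67 cell barcodes, at most 0.543% of the smaller library. The make-up of the cultures moved with the days. The summed level of the 10 chondrocyte markers was 2029 to 2232 CPM (the UMIs of a gene relative to all UMIs of its library) at Day 2, 15060 to 16240 at Day 7 and 9059 to 9810 at Day 10. Markers of joint interzone summed to 648 to 703, 279 to 285 and 255 to 257 CPM and those of dividing cells to 2065 to 2188, 548 to 562 and 350 to 421 CPM. Markers of interdigital mesenchyme, a tissue of the distal limb, summed to 168 to 183, 55.7 to 60.2 and 65.9 to 66.1 CPM. Perichondrium markers summed to 1079 and 1142 CPM at Day 2 and to 4488 and 3970 in the cultures of Day 10. Osteoblast markers had sums of 37.7 and 42.4 against 693 and 932 CPM for the same days, and myocyte markers 536 and 413 against 3.24 and 8.48 CPM. Of the osteoblast sums at Day 10, *Ibsp* alone, which is also on the list of hypertrophic chondrocyte markers, gave 500 and 721 CPM. The part of these shifts in the changes between days was not tested, and in sums over whole cultures fewer cells of a type and less RNA per cell cannot be told apart.

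The 3 members with the largest falls over the culture were *Epha7*, *Efna2* and *Efnb2*, and their promoters are shown because these genes changed most between days. Each window runs from 250 bases before to 50 bases after a RefSeq start (GRCm38.p6), 5′ to 3′ on the strand of the gene, with GC boxes (GGGCGG on either strand) in capitals. *Epha7* lies at chr4:28812881-28813180 on the plus strand, *Efna2* at chr10:80179232-80179531 on the plus strand and *Efnb2* at chr8:8661193-8661492 on the minus strand.
Epha7: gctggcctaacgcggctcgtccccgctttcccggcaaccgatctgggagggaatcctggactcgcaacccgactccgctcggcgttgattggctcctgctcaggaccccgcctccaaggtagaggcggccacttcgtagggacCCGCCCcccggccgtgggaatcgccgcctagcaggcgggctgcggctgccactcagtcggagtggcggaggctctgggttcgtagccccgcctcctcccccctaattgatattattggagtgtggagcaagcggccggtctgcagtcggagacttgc
Efna2: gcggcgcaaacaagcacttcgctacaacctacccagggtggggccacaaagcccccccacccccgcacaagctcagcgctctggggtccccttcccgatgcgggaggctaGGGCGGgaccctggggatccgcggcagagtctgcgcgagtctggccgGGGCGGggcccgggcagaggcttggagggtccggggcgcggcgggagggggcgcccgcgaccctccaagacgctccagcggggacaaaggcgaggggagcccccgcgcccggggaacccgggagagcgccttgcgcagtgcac
Efnb2: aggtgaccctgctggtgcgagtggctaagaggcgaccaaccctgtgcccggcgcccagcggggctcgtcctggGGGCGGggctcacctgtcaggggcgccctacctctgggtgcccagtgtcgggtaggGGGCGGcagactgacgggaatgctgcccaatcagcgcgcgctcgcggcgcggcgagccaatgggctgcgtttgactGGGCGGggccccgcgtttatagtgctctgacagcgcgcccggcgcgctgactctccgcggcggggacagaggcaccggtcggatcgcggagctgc
A GC box was present in the windows of 7 of the 10 members and in 35.7% of all 32851 promoter windows of this length. The letters CCAAT (either strand) were found for 5 of the 10 members and in 37.4% of all windows, and TATAAA (either strand) for *Efnb2* alone among the members and in 13.6% of all windows. GC content was between 59.7% and 74.7% in the windows of the members, against a median of 52.7% over all windows. A match of letters is a description of the window.

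To determine how the A-class receptors behave over time, UMIs were summed over the cells of each library and expressed as CPM after TMM scaling, with replicates A and B given in that order. *Epha7*, the receptor linked to the condensation of limb mesenchyme (chr4:28813131-28967499), was at 26.4 and 27.8 CPM at Day 2, 7.55 and 8.58 at Day 7 and reached 7.25 and 6.18 at Day 10. Both Day 2 cultures were high and all later cultures low, with no overlap. The log2 fold change was -1.75 ± 0.09 (SE; n = 2 per day) from Day 2 to Day 7 (adjusted p = 3.576e-07, edgeR) and -0.26 ± 0.09 from Day 7 to Day 10 (adjusted p = 0.0358). The later step was lost without Day 7 replicate B (-0.17) and without Day 10 replicate B (-0.15). It was also lost with the replicate letter as a block (-0.26, adjusted p = 0.0576) and with all deposited barcodes (-0.21, adjusted p = 0.0932). With each cell thinned to 1000 UMIs it was -0.43 and not called (adjusted p = 0.119). It was called under 9 of 14 alternatives. In cells thinned to 3000 UMIs, an *Epha7* UMI was found in 9.08% (A) and 8.93% (B) of the Day 2 cells, falling to 2.82% and 3.38% by Day 7 and to 2.32% and 2.25% by Day 10. In immune-like cells at Day 10, thinned in the same way, the share was 0 of 118, which allows up to 2.54%, and 1.22% (exact 95% interval 0.148% to 4.34%). With so few cells these limits cannot show whether the Day 10 share of the whole culture was above that of such cells. In unthinned sums of Day 10, *Epha7* was at 0.687 and 1.76 CPM in immune-like cells. The whole cultures had 6.82 and 5.88 CPM of it without TMM scaling. All intervals and limits cover counting error only.

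*Epha4*, which binds ephrins of both classes (chr1:77367185-77515088), was at 52.6 and 48.1 CPM at Day 2, 25.9 and 24.8 at Day 7 and ended at 28.7 and 26.0 by Day 10. The Day 2 cultures stood above the later 4. It fell by 0.99 ± 0.07 on the log2 scale from Day 2 to Day 7 (adjusted p = 2.137e-06, edgeR), or by 0.41 (adjusted p = 0.0179) with each cell thinned to 1000 UMIs, and the step from Day 7 to Day 10 was 0.11 ± 0.07 (adjusted p = 0.195). *Epha3*, a receptor for A-class ephrins (chr16:63543534-63864175), was at 16.9 and 17.8 CPM at Day 2, 17.7 and 18.2 at Day 7 and reached 21.4 and 19.3 at Day 10. Day 2 and Day 7 overlapped and Day 10 was highest in both cultures. With each cell thinned to 1000 UMIs *Epha3* was higher at Day 7 than at Day 2 by 0.50 (adjusted p = 0.00439). In the sums over all kept cells the change was 0.05 ± 0.06 from Day 2 to Day 7 (adjusted p = 0.464) and 0.18 ± 0.06 from Day 7 to Day 10 (adjusted p = 0.0368). The later step was lost without Day 7 replicate A (0.16), without Day 7 replicate B (0.20) and without Day 10 replicate A (0.11). It was also lost with the replicate block (0.18, adjusted p = 0.0548) and with all deposited barcodes (0.15, adjusted p = 0.102). With each cell thinned to 1000 UMIs it was 0.03 (adjusted p = 0.894). It was called under 8 of 14 alternatives. From Day 2 to Day 10 *Epha3* rose by 0.23 (adjusted p = 0.00724), which without Day 10 replicate A became 0.17 (adjusted p = 0.054, range over alternatives 0.00192 to 0.054).

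*Epha5*, best known from axon guidance (chr5:84054761-84417382), was at 12.2 and 13.6 CPM at Day 2, 15.5 and 18.0 at Day 7 and ended at 13.2 and 13.5 by Day 10. Both Day 7 cultures were above the other 4, and Day 2 and Day 10 overlapped. It rose by 0.38 ± 0.08 from Day 2 to Day 7 (adjusted p = 0.00317, edgeR) and fell by 0.33 ± 0.08 from Day 7 to Day 10 (adjusted p = 0.0101). The fall was lost without Day 7 replicate B (-0.21, adjusted p = 0.0864) and without Day 10 replicate A (-0.31, adjusted p = 0.0595), with adjusted p from 0.00193 to 0.558 over 14 alternatives. When each cell was thinned to 1000 UMIs, so that deep and shallow cells weigh the same, *Epha5* was instead higher at Day 10 than at Day 2 (0.89, adjusted p = 7.172e-05) and the step from Day 7 to Day 10 was 0.12.

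Of the B-class receptors, *Ephb2* (chr4:136647539-136835988), a receptor for B-class ephrins, was at 10.7 and 10.7 CPM at Day 2, 14.9 and 14.6 at Day 7 and reached 16.9 and 16.4 at Day 10. The days did not overlap and the level was higher at each later day. It rose by 0.46 ± 0.05 on the log2 scale from Day 2 to Day 7 (adjusted p = 4.036e-05, edgeR) and by 0.18 ± 0.05 from Day 7 to Day 10 (adjusted p = 0.0162). The later step was lost without Day 7 replicate A (0.19), without Day 7 replicate B (0.17) and without Day 10 replicate A (0.16), with adjusted p from 0.0127 to 0.317 over 14 alternatives. *Ephb3* (chr16:21204755-21223305), a receptor for the same ligands, was at 10.7 and 10.8 CPM at Day 2, 9.71 and 9.65 at Day 7 and ended at 9.26 and 8.42 by Day 10. Each later day was a little lower, and the days did not overlap. Its change passed the test over the whole culture period (-0.28, adjusted p = 0.00271, edgeR), with -0.15 ± 0.06 from Day 2 to Day 7 (adjusted p = 0.0544) and -0.13 ± 0.06 from Day 7 to Day 10 (adjusted p = 0.112). The first of these steps passed under 3 of 14 alternatives (-0.17 with RLE scaling, -0.20 in cells with at least 3000 UMIs and -0.24 with under 10% mitochondrial UMIs), and the second under 1 (-0.27 with under 10% mitochondrial UMIs). With each cell thinned to 1000 UMIs the difference between Day 10 and Day 2 was 0.04 (adjusted p = 0.839, range over 14 alternatives 5.034e-05 to 0.839).

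Among the A-class ephrins, *Efna2* (chr10:80179482-80190010) was at 35.2 and 33.0 CPM at Day 2, 8.44 and 8.48 at Day 7 and reached 9.43 and 8.82 at Day 10. As for *Epha7*, a high Day 2 was followed by a low and nearly level Day 7 and Day 10. *Efna2* fell by 2.01 ± 0.06 on the log2 scale by Day 7 (adjusted p = 1.893e-08, edgeR), the largest change of a member in that comparison, and differed by 0.11 ± 0.06 between Day 7 and Day 10 (adjusted p = 0.152). *Efna5* (chr17:62604184-62881317), a ligand of several EphA receptors and also of EphB2, was at 33.8 and 33.0 CPM at Day 2, 32.3 and 30.4 at Day 7 and ended at 42.4 and 39.7 by Day 10. The Day 10 cultures were the highest, and those of Day 2 and Day 7 lay close together. It rose by 0.39 ± 0.06 from Day 7 to Day 10 (adjusted p = 0.000645), while the step from Day 2 to Day 7 was -0.09 ± 0.06 (adjusted p = 0.171). This early step turned to 0.49 (adjusted p = 0.000686, range over 14 alternatives 0.000686 to 0.679) with each cell thinned to 1000 UMIs, and passed as a fall with all deposited barcodes (-0.15, adjusted p = 0.041) and with under 10% mitochondrial UMIs (-0.17, adjusted p = 0.025).

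The B-class ephrins changed in opposite directions. *Efnb2* (chr8:8617434-8661242), which is widely studied in vessels and mesenchyme, was at 59.8 and 60.8 CPM at Day 2, 43.5 and 43.1 at Day 7 and reached 24.2 and 22.6 at Day 10. It was lower at each later day, and no days overlapped. It fell by 0.48 ± 0.05 on the log2 scale from Day 2 to Day 7 (adjusted p = 3.639e-05, edgeR) and by 0.89 ± 0.05 from Day 7 to Day 10 (adjusted p = 1.236e-05). The early fall was -0.08 (adjusted p = 0.505, range over 14 alternatives 5.202e-16 to 0.505) with each cell thinned to 1000 UMIs. *Efnb1* (chrX:99136130-99148991), whose loss disturbs skeletal patterning in mice and people, was at 26.1 and 27.0 CPM at Day 2, 27.1 and 25.5 at Day 7 and ended at 33.8 and 34.2 by Day 10. Day 2 and Day 7 overlapped and both Day 10 cultures were higher. The change was -0.01 ± 0.05 from Day 2 to Day 7 (adjusted p = 0.819) and 0.37 ± 0.05 from Day 7 to Day 10 (adjusted p = 0.000559), the latter 0.35 (adjusted p = 0.0583) with each cell thinned to 1000 UMIs.

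**Figure D1:**
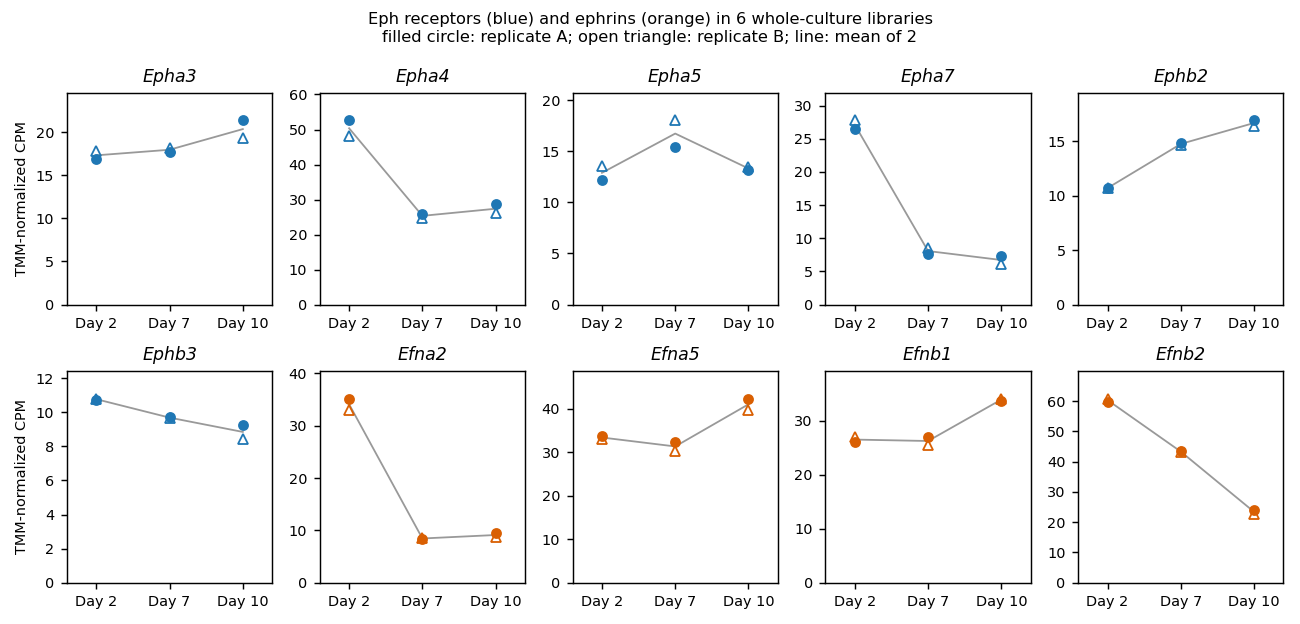
TMM-normalized CPM of the 10 members (vertical axis, from 0) in the whole culture at Day 2, Day 7 and Day 10, with circles for replicate A, triangles for replicate B and lines through the mean of 2. *Epha7* and *Efna2* drop after Day 2, *Efnb2* drops at each step, and *Efna5* and *Efnb1* are highest at Day 10.

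Of the 10 members, 6 passed the test between Day 2 and Day 7 (2 higher, 4 lower), where 70.3% of the 18987 genes tested did (35.7% higher, 34.6% lower). Between Day 7 and Day 10 it was 7 (4 higher, 3 lower) beside 52.2% of all genes (26.3% higher, 25.9% lower), and between Day 2 and Day 10 it was 9 (4 higher, 5 lower) beside 77.3% (39.0% higher, 38.2% lower). The replicates of the days did not overlap for 8 of 10 members between Day 2 and Day 7, 10 of 10 between Day 7 and Day 10 and 9 of 10 between Day 2 and Day 10, beside 85.4%, 79.8% and 88.5% of all genes. These counts are close to what all genes gave, and the median log2 fold changes of the members (-0.12, 0.11 and -0.12) compare with 0.01, -0.02 and 0.00 over all genes. The 3 comparisons share libraries and are not independent. Summed over the 6 receptors, the Day 2 cultures had 130 and 129 CPM, those of Day 7 had 91.2 and 93.9 and those of Day 10 had 96.7 and 89.9. The 4 ephrins summed to 155 and 154, 111 and 107, and 110 and 105 CPM.

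**Figure D2:**
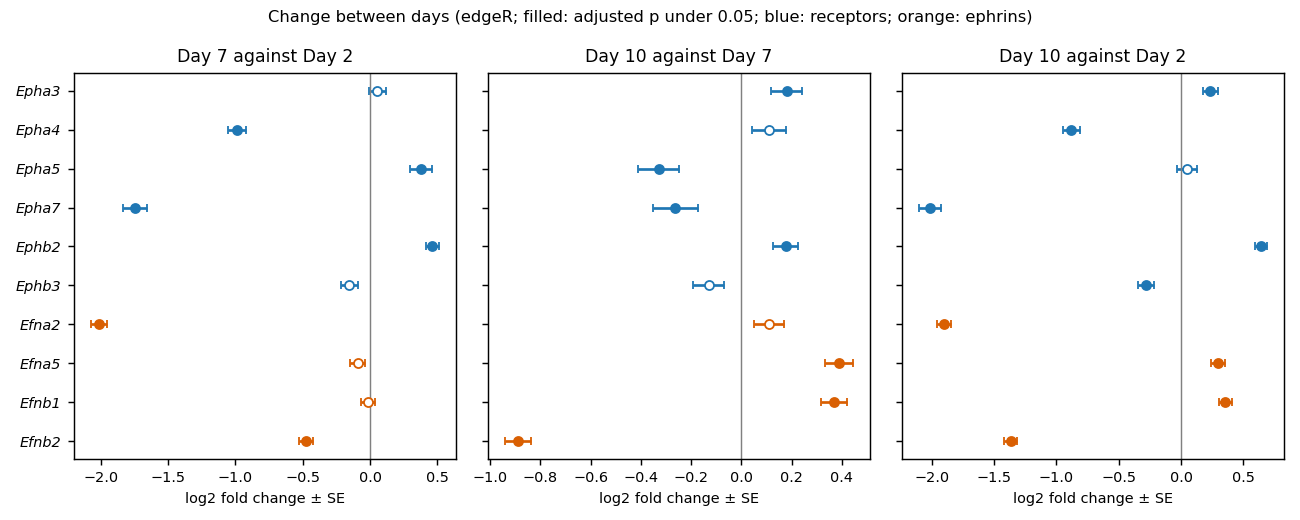
Log2 fold change with its standard error (horizontal axis) for each member in 3 comparisons of days, with receptors in blue, ephrins in orange and filled points for an adjusted p under 0.05. *Epha7* and *Efna2* lie farthest to the left in the comparisons with Day 2, and *Efnb2* in that of Day 10 with Day 7.

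Of the other 12 Eph and ephrin genes, 11 were tested, and 9 passed between Day 2 and Day 7 (3 higher, 6 lower), beside 70.3% of all genes (35.7% higher, 34.6% lower). *Efnb3*, the third B-class ephrin, was at 11.6 and 10.6 CPM at Day 2, 1.94 and 1.85 at Day 7 and reached 1.55 and 1.41 at Day 10, a fall of 2.55 ± 0.09 on the log2 scale by Day 7 (adjusted p = 3.882e-08). *Efna4* also fell by Day 7 (by 1.43), and *Efna3* went from 9.46 and 8.80 CPM to 4.58 and 4.55. By contrast, *Efna1* rose by 1.35, from 2.90 and 2.54 CPM at Day 2 to 6.94 and 6.97 at Day 7. The receptor *Epha2* rose at both steps (0.75 and 0.54) and *Ephb1* fell at both (-1.52 and -1.90). *Ephb4*, a receptor for ephrin-B2 in vessels, also fell at both (-0.50 and -0.20). *Epha6* had 43 and 23 UMIs in the Day 2 libraries and 4 to 6 in the later ones. *Epha8* had 2 and 1 UMIs in the Day 2 libraries and 180 and 243 at Day 10.

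Among 31 signalling partners of Eph receptors and ephrins, 27 passed between Day 2 and Day 7 (6 higher, 21 lower, median log2 fold change -0.24, beside 70.3% of all genes), 21 between Day 7 and Day 10 (12 higher, 9 lower, median 0.09, beside 52.2%) and 25 between Day 2 and Day 10 (9 higher, 16 lower, median -0.21, beside 77.3%). *Grip1*, a scaffold that binds the tail of B-class ephrins, fell by 2.63 ± 0.09 and then by 1.04 on the log2 scale. *Chn1*, a Rac regulator downstream of EphA4, fell by 1.83 ± 0.08 to Day 7. *Ngef*, an exchange factor bound by EphA receptors, rose by 4.43 ± 0.30 from 12 and 28 UMIs at Day 2, and *Dok1*, an adaptor, by 1.28 ± 0.06. Between Day 7 and Day 10 *Tiam1* and *Vav3*, both guanine nucleotide exchange factors, fell by 0.83 and 0.72, and *Ngef* fell by 0.67 (adjusted p = 0.033, edgeR).

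To see which cells held the members, clusters were rebuilt for each day with all Eph and ephrin genes left out of the clustering, which gave 13, 14 and 16 clusters. Clusters carry a name only where markers support it, levels are CPM per cluster in replicates A and B, and no test was made between clusters. At Day 2 the joint interzone-like cluster (led by *Pthlh*, *Aldh1a2*, *Eomes* and *Col14a1*, with *Gdf5* at rank 6) had the highest *Epha3*, 62.3 and 65.8 CPM, and the highest *Epha4*, 137 and 140 CPM. *Aldh1a2* is on the list of interdigital mesenchyme markers, so the leading genes of this cluster are mixed. The chondrocyte-like cluster had 5.57 and 3.30 CPM of *Epha3* but the highest *Efnb1*, 53.7 and 58.1 CPM. The next highest level of both genes was in the interdigital mesenchyme-like cluster, with means of 41.9 CPM of *Epha3* and 43.1 CPM of *Efnb1*. The interdigital mesenchyme-like cluster held *Epha3* at 43.6 and 40.1 CPM with *Efnb2* at 25.4 and 31.8 CPM, against 97.2 and 110 CPM of *Efnb2* in the joint interzone-like cells.

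*Epha7* at Day 2 was at 57.1 and 58.0 CPM in an unnamed cluster led by *Pkdcc*, *Meis2*, *Aspn* and *Shox2*, and at 70.1 and 58.5 CPM in a cluster led by mitochondrial genes. This last cluster was shallow (median depth 2915 UMIs in replicate A and 3008 in B) and was the highest of Day 2 for 6 of the 10 members (*Epha5*, *Epha7*, *Ephb2*, *Ephb3*, *Efna5* and *Efnb2*). Its replicates overlapped those of the next cluster for *Epha5*, *Ephb2*, *Efna5* and *Efnb2*. At Day 7 an unnamed cluster led by *Ltbp2*, *Kif15*, *Mki67*, *Col1a1* and *Eln* (median depth 7019 and 6416 UMIs) was the highest for 5 (*Epha3*, *Epha4*, *Ephb2*, *Ephb3* and *Efna5*). For *Epha3* it overlapped the joint interzone-like cluster. Chondrocyte-like cells of Day 2 had 21.7 and 23.0 CPM of *Epha7*. At Day 7 the highest level of *Epha7* was in joint interzone-like cells (27.0 and 23.2 CPM), while the deeper chondrocyte-like cluster had 2.45 and 3.02 CPM. *Efnb2* was also highest in these joint interzone-like cells (led by *Fabp4*, *Gas1*, *Osr1* and *Angptl1*), with 121 and 116 CPM. The cluster of that name at Day 2 had 97.2 and 110 CPM. These clusters were built separately for each day, with mostly different leading genes, and are not shown to hold the same cells. *Epha5* was highest in the tenocyte-like cluster at Day 7 (45.9 and 51.3 CPM), but in other clusters at Day 2 and Day 10.

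**Figure D3:**
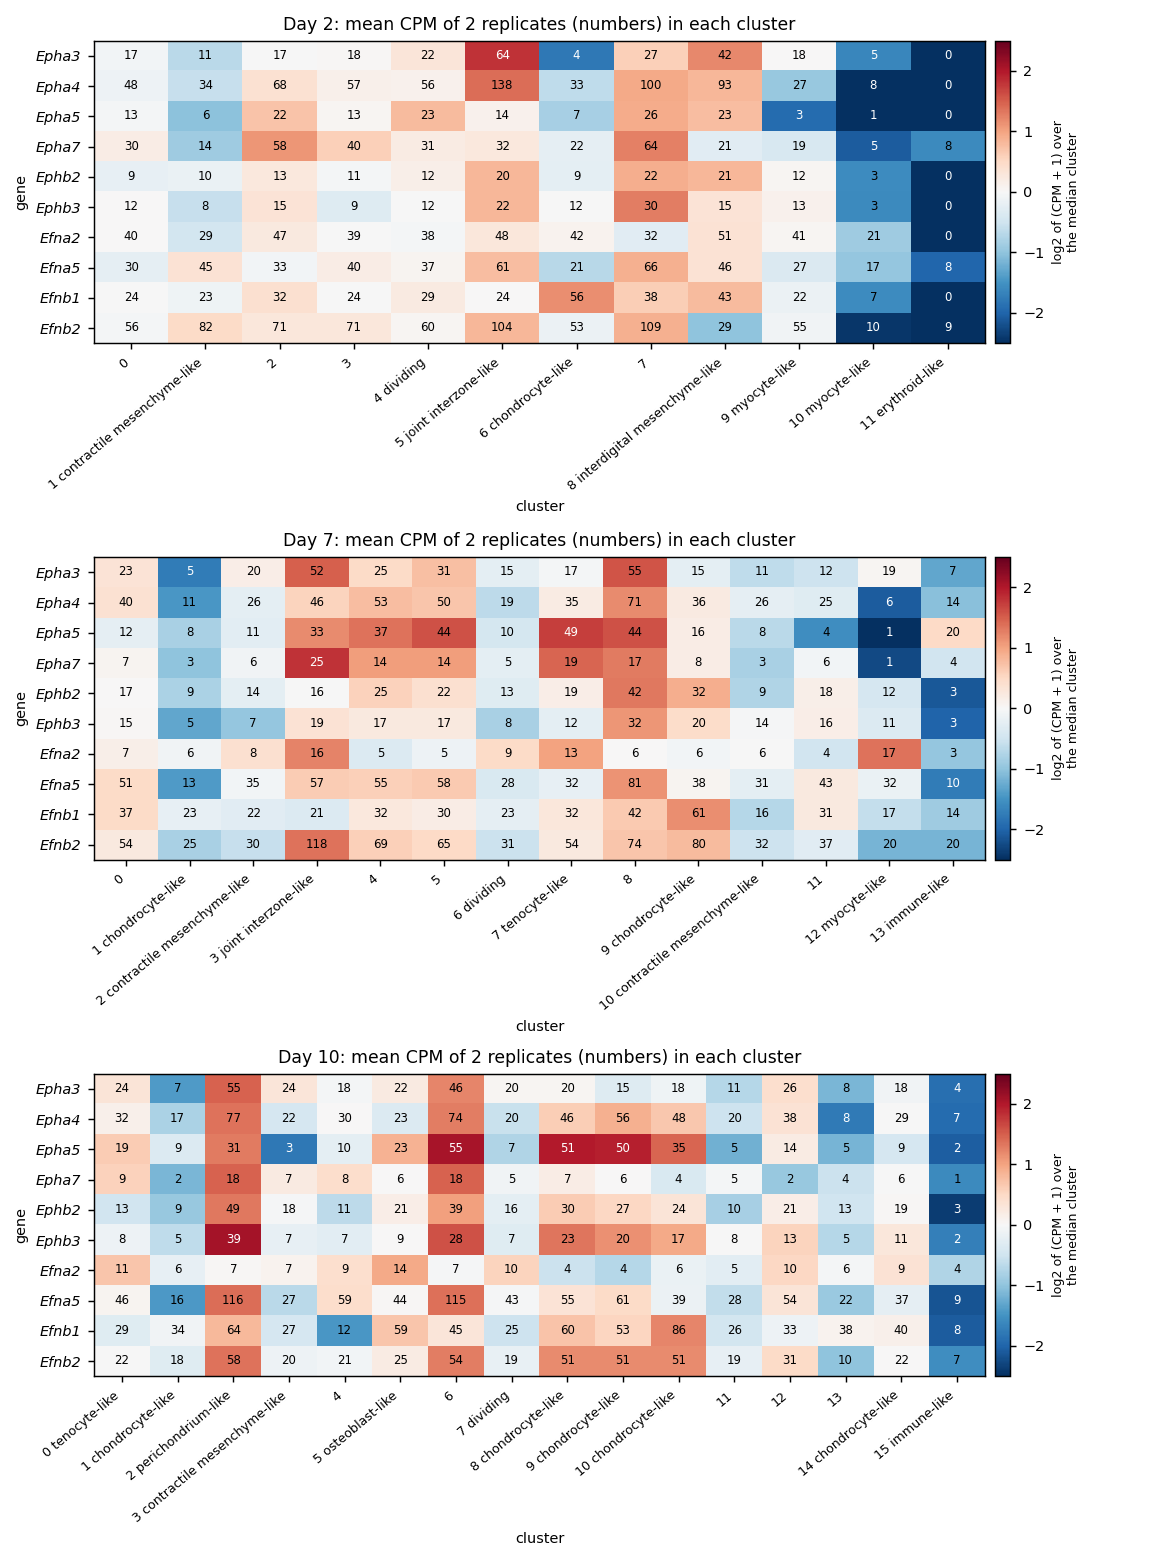
Mean CPM of 2 replicates (numbers) for each member (rows) in each cluster (columns) of each day, for clusters with at least 10 cells in both replicates, coloured by the log2 ratio of CPM + 1 to the median cluster. *Epha3* and *Efnb1* are highest in different clusters at each day, and immune-like cells are lowest for all 10 members at Day 10.

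At Day 10 the perichondrium-like cluster (led by *Lars2*, *Pappa*, *Postn*, *Pcsk5* and *Col1a1*) was the highest for 7 of the 10 members, among them *Efna5* at 123 and 108 CPM, *Epha4* at 77.8 and 75.8 CPM and *Ephb3* at 45.9 and 32.6 CPM. It was a shallow cluster (median depth 5210 UMIs in replicate A and 4092 in B, where the whole libraries had 24197 and 22128). Another shallow, unnamed cluster, led by *Xist*, *Lars2*, *Tsix* and *Dnm3os*, came next for all 7 and overlapped it for 4 of them (*Epha4*, *Epha7*, *Efna5* and *Efnb2*). The part of depth in these levels was not tested. *Epha5* was highest in the unnamed cluster led by *Xist*, *Lars2*, *Tsix* and *Dnm3os* (43.1 and 66.3 CPM), which overlapped a chondrocyte-like cluster (mean 51.4 CPM). *Efnb1* was highest in a chondrocyte-like cluster (92.5 and 79.1 CPM) and *Efna2* in osteoblast-like cells (13.9 and 13.9 CPM). At each of the 3 days the highest *Efnb1* was thus in 1 chondrocyte-like cluster, with *Epha3* in those clusters at 5.57 and 3.30, 14.8 and 15.1, and 16.6 and 18.6 CPM. Those of Day 7 and Day 10 lay near the median cluster (17.9 and 19.0 CPM), and the cluster with the highest *Epha3* was the second highest for *Efnb1* at Day 7 (mean 41.9 CPM, an unnamed cluster) and at Day 10 (mean 64.0 CPM, the perichondrium-like cluster). The larger and deeper chondrocyte-like clusters of these days had less of both genes, with *Efnb1* at 22.5 and 22.9 CPM and *Epha3* at 4.93 and 4.37 CPM at Day 7, the lowest *Epha3* of that day, and 34.0 and 33.6 CPM and 6.54 and 6.46 CPM at Day 10. Immune-like cells had the lowest level of every member at Day 10, from 0.687 and 1.76 CPM for *Epha7* to 8.59 and 9.29 CPM for *Efna5*. For *Efna2* this lowest level (3.44 and 3.77 CPM) overlapped that of a chondrocyte-like cluster (3.48 and 3.94 CPM).

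To ask whether members occur in the same cells or in complementary ones, cells were thinned to 3000 UMIs, those with at least 1 UMI of a member were summed per library, and the sum was compared with that of the cells without it in the same library. Complementary expression would appear as a lower level of the partner. Of 90 ordered pairs, 40 had a higher level of the partner in cells with the UMI and 0 a lower one (edgeR with the library as a covariate, adjusted over all genes tested). Of the 13 with a log2 fold change under 0, 1 had an unadjusted p under 0.05, and DESeq2 gave 0 lower as well. Of all genes, between 1.6% (cells split by *Efna2*) and 14.2% (cells split by *Epha4*) were lower in cells with the UMI. In both directions, 9 of 15 pairs of receptors, 8 of 24 pairs of a receptor and an ephrin and 1 of 6 pairs of ephrins were higher. Cells with under 10% mitochondrial UMIs gave 24 higher, thinning to 1000 UMIs gave 8 and thinning to 10000 UMIs gave 61, with 37 of the 40 among the 61. As each member had its own cells, the share of all genes that were higher in those cells is given beside each count below, and among genes of 10 to 60 CPM it ranged from 0.279% (*Efna2*) to 15.5% (*Epha4*).

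Among the receptors, cells with *Epha4* were higher for 7 of the 9 other members, where 12.1% of all genes were higher. *Epha3* was at 34.9, 36.4, 26.6, 35.8, 28.7 and 47.8 CPM in cells with *Epha4* and at 18.5, 17.3, 21.1, 19.6, 22.8 and 21.1 CPM in cells without it (Day 2 A and B, Day 7 A and B, Day 10 A and B). It was higher with *Epha4* in 6 of 6 libraries, least so in the A replicates of Day 7 and Day 10. The log2 fold change was 0.75 ± 0.10 (adjusted p = 3.585e-06, edgeR), and in the other direction *Epha4* was higher in cells with *Epha3* by 0.67 ± 0.09 (adjusted p = 1.486e-05), where 4 of 9 members and 6.61% of all genes were higher.

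*Epha7* was also higher in cells with *Epha4*, at 50.4, 45.6, 17.4, 20.8, 15 and 13.8 CPM against 33.4, 32.6, 9.69, 11.8, 7.51 and 7.48 CPM. All 6 libraries showed the difference although the level of *Epha7* itself was far lower after Day 2, and the log2 fold change was 0.62 ± 0.09 (adjusted p = 2.158e-05, edgeR). Cells with *Epha5* were higher for 5 of 9 members (6.97% of all genes) and had 30.1 ± 24.1 CPM of *Epha7* against 17.7 ± 12.8 (SD, n = 6), or 0.68 ± 0.12 on the log2 scale, higher in 6 of 6 libraries. Cells with *Epha7* were higher for 3 of 9 members (4.57% of all genes), which were *Epha4*, *Epha5* and *Efnb2*.

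The B-class receptors formed a pair that depended on the cells used. *Ephb3* was at 25.1, 11.4, 26.1, 12.6, 26.7 and 22.1 CPM in cells with *Ephb2* and at 14, 12.7, 12.5, 11.9, 12.7 and 12.6 CPM in cells without. The A replicates of Day 2 and Day 7 and both Day 10 libraries were higher, while Day 2 B was lower and Day 7 B nearly equal. The log2 fold change was 0.65 ± 0.14 (adjusted p = 0.000215, edgeR), and it became 0.21 (adjusted p = 0.0602) with cells thinned to 10000 UMIs and 0.41 (adjusted p = 0.246) in cells with under 10% mitochondrial UMIs, with adjusted p between 1.694e-05 and 0.246 over 12 alternatives. Across classes, *Epha4* was higher by 0.64 ± 0.08 in cells with *Ephb2* in 6 of 6 libraries. That value was 0.32 (adjusted p = 0.000331) at 10000 UMIs and turned to -0.0604 at 1000 UMIs, with adjusted p up to 0.947 over the alternatives. Cells with *Ephb2* were higher for 5 of 9 members (8.84% of all genes) and cells with *Ephb3* for 6 of 9 (5.91%). In cells with under 10% mitochondrial UMIs 1 of 9 was higher with *Ephb2*, and the 6 calls with *Ephb3* were lost, with values such as 0.29 for *Epha4* and 0.45 for *Epha5* (0.33 and 0.52 in all cells).

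Some receptors and ephrins were raised in the same cells, among them *Epha3* and its ligand *Efna5*. *Epha3* was at 36.5, 30.3, 32.4, 31.3, 33.3 and 34.2 CPM in cells with *Efna5*, against 19.2, 18.7, 20.3, 19.8, 21.8 and 21.8 CPM in cells without. The ranges were far apart, and the ratio lay between 1.53 and 1.90 in all libraries. The log2 fold change was 0.64 ± 0.07 (adjusted p = 8.902e-07, edgeR), and it remained called under all 12 alternatives, at 0.55 to 0.77. Cells with *Efna5* were higher for 5 of 9 members, beside 11.45% of all genes. With *Efnb2*, *Epha3* was higher by 0.51 ± 0.07 and *Epha5* by 0.50 ± 0.08, both in 6 of 6 libraries, and cells with *Efnb2* were higher for 5 of 9 members (8.81% of all genes).

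**Figure D4:**
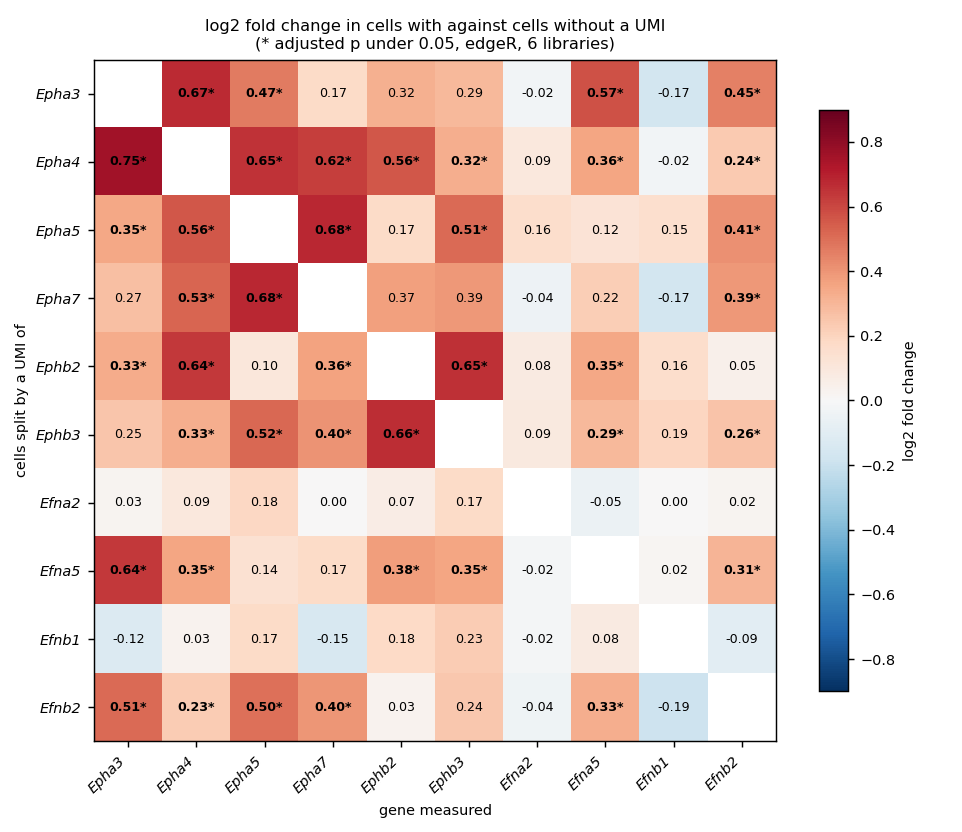
Log2 fold change of each member (columns) in cells with against cells without a UMI of another member (rows), in cells thinned to 3000 UMIs and 6 libraries, with an asterisk for an adjusted p under 0.05. Receptors, *Efna5* and *Efnb2* share most of the higher pairs, and the rows and columns of *Efna2* and *Efnb1* hold no asterisk.

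*Efnb1* and *Efna2* had no called pair at 3000 UMIs per cell. After Day 2 an *Efna2* UMI was found in 2.25% to 2.78% of cells, and in immune-like cells of Day 10 in 4.24% (exact 95% interval 1.39% to 9.61%) and 0.61% (0.0154% to 3.35%). With so few immune-like cells these intervals cannot show whether the share of the whole culture was higher. In unthinned sums of Day 10, *Efna2* was at 3.44 and 3.77 CPM in immune-like cells. The whole cultures had 8.87 and 8.40 CPM of it without TMM scaling. In cells with *Efna2* 0 of 9 members passed (edgeR; 0 at an unadjusted p under 0.05 and 0 by DESeq2), where 0.52% of all genes were higher. In cells with *Efnb1* it was also 0 of 9 (edgeR; 1 at an unadjusted p under 0.05 and 0 by DESeq2), although 4.12% of all genes were higher. With cells thinned to 10000 UMIs, 2 of 9 members were higher in cells with *Efna2* (2.46% of all genes) and 3 of 9 in cells with *Efnb1* (6.22%). *Efnb1* was at 25.6, 28.2, 31.8, 20.2, 40.5 and 37.2 CPM in cells with *Efnb2* and at 32.8, 32.7, 28.6, 24.7, 41.0 and 36.7 CPM in cells without. It was lower in 4 of 6 libraries, with a log2 fold change of -0.19 ± 0.07 (adjusted p = 0.0714, edgeR), and became lower by the test without Day 7 replicate A and without the filter on low counts, with adjusted p from 0.0257 to 0.489 over 12 alternatives. At 10000 UMIs it was -0.04. *Efnb1* in cells with *Epha3* was at 27.1, 24.3, 28.3, 27.2, 41.0 and 36.2 CPM against 31.9, 32.3, 29.1, 23.9, 41.0 and 36.8 CPM, a difference of -0.17 ± 0.09 (adjusted p = 0.25, edgeR) that rests on 36 to 74 *Efnb1* UMIs per library in the cells with *Epha3*. At 10000 UMIs the difference was -0.25 (adjusted p = 0.124, edgeR), and with under 10% mitochondrial UMIs it was -0.24 (adjusted p = 0.222), neither of them called. A difference between days in this pair did not pass the test (adjusted p = 0.495).

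The cells that carried these genes differed in their markers. Of 10 chondrocyte markers, 9 were higher in cells with *Efnb1* (median log2 fold change 0.36), among them *Acan*, the cartilage proteoglycan (0.59 ± 0.06, adjusted p = 2.341e-11, edgeR), and *Col2a1* (0.48 ± 0.05), while *Snorc* was at 0.07 ± 0.07. In cells with *Epha3*, 8 of the same 10 were lower (median -0.83), with *Acan* at -0.88 ± 0.08, *Col2a1* at -0.78 ± 0.06 and *Snorc* at -1.54 ± 0.10. In cells with *Efna5* it was 9 of 10 lower (13.8% of all genes), with *Epha7* 8 (7.94%) and with *Efna2* 7 (1.6%). In cells with *Epha4* 5 were lower and 2 higher (14.2% of all genes lower), with *Epha5* 4 and 2 (10.5%), with *Ephb2* 4 and 1 (12.7%), with *Ephb3* 4 and 2 (13.1%) and with *Efnb2* 3 and 1 (12.8%). No marker was lower in cells with *Efnb1* (6.25%, edgeR), where none of the 10 had a log2 fold change under 0. The difference between the cells with *Efnb1* and those with *Epha3* was not itself tested. Of all genes, 4.12% were higher in cells with *Efnb1*, and 11% were lower in cells with *Epha3*, with median log2 fold changes over all genes of -0.0047 and 0.0039.

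Osteoblast markers followed *Efnb1* too, with 4 of 6 higher, among them *Alpl* (0.72 ± 0.07) and *Ibsp*, a matrix protein of bone (0.57 ± 0.07). In cells with *Epha3*, 2 of the 5 osteoblast markers tested were lower, with *Ibsp* at -1.38 ± 0.20, and the median was 0.07. *Ibsp* also counts among 5 markers of prehypertrophic or hypertrophic chondrocytes. All 5 of these were higher in cells with *Efnb1* (median 0.48, beside 4.12% of all genes). In cells with *Epha3* 3 of them were lower (11% of all genes) and 1 was higher (median -0.47). Of 6 joint interzone markers, 5 were higher in cells with *Epha3* (6.61% of all genes), such as *Gdf5*, the joint growth factor (0.90 ± 0.15, adjusted p = 0.000127, edgeR), and *Ebf1* (0.68 ± 0.09), and 5 in cells with *Epha4* (12.1%). In cells with *Efnb1* 2 of the 6 were lower (median -0.22), *Gdf5* at -0.55 ± 0.13 and *Hoxd13* at -0.40 ± 0.10. All 5 perichondrium markers were higher in cells with *Epha4* (12.1% of all genes), *Ephb2* (8.84%), *Ephb3* (5.91%), *Efna5* (11.45%) or *Efnb2* (8.81%), 4 of 5 in cells with *Epha3* or *Epha7*, 3 with *Efnb1* and 2 with *Epha5*. Among all genes with a mean of at least 20 CPM, those most raised with *Epha3* were *Hhip*, an inhibitor of hedgehog signalling (1.06 ± 0.12), and *Adamts5*, a protease of cartilage matrix (1.02 ± 0.12). Those with *Efnb1* were led by *Nrgn* (0.66 ± 0.09), *Scube1* (0.65 ± 0.10) and *Trpv4* (0.64 ± 0.08). *Fgfr3*, a receptor that restrains chondrocyte growth, was at rank 4 for *Efnb1* (0.60 ± 0.06). Those with *Efna5* were led by *Slit2*, a guidance ligand (0.73 ± 0.06).

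Cells with a UMI of most members also differed in quality measures. At 3000 UMIs per cell the mitochondrial share was 7.86% in cells with *Epha3* and 5.99% in cells without (means of 6 libraries), and it was higher in 6 of 6 libraries for every member except *Efna2*, which had 4.70% against 6.15%. The summed level of *Meg3*, *Kcnq1ot1*, *Neat1* and *Malat1*, which stay in the nucleus, was 37340 against 29780 CPM for *Epha3* and 24510 against 30370 CPM for *Efna2*. Of 11 genes of the dissociation response, 8 were higher in cells with *Epha7* (4.57% of all genes), 7 with *Efnb2* (8.81%), 6 with *Epha3* (6.61%), 5 with *Epha4* (12.1%) and 4 with *Efna2* (0.52%). Of the same 11, 3 each were higher with *Epha5* (6.97%), *Ephb2* (8.84%) and *Efna5* (11.45%) and 1 with *Ephb3* (5.91%). With *Efnb1* 0 were higher and 2 lower, beside 6.25% of all genes lower. A single gene was lower with each of *Epha4* (14.2% of all genes lower), *Epha5* (10.5%), *Ephb2* (12.7%), *Ephb3* (13.1%) and *Efna5* (13.8%). Cells with *Epha3* had a median depth of 14200 UMIs before thinning, and those without 20150. At 10000 UMIs per cell the mitochondrial shares came closer, 3.31% against 3.03% for *Epha3*. Their part in the pairs was not tested, apart from the counts given above for cells with under 10% mitochondrial UMIs.

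Detection of the members in the same cells was also described within clusters, with no test. The log2 odds ratio of *Epha3* with *Efna5* was 0.66 ± 0.11 over all cells (SD, n = 6) and 0.29 within clusters, and that of *Epha4* with *Epha7* was 0.73 ± 0.21 and 0.42. Of 45 pairs, 20 were above 0 in all 6 libraries over all cells and 5 within clusters (31 and 21 at 10000 UMIs per cell, 11 and 2 at 1000), namely *Epha4* with *Epha7*, *Epha5* with *Epha7*, *Epha4* with *Ephb2*, *Epha3* with *Efna5* and *Epha3* with *Efnb2*. At 10000 UMIs *Epha4* with *Ephb2* was above 0 within clusters in 4 of 6 libraries. *Efnb1* with *Efnb2* was at -0.11 over all cells and at -0.21 within clusters, where 5 of 6 libraries were below 0. At 10000 UMIs per cell the same pair was at 0.05 over all cells, with 5 of 6 libraries above 0, and at -0.0011 within clusters. *Epha3* with *Efnb1* was at -0.08 ± 0.22 over all cells and at -0.10 ± 0.23 within clusters (SD, n = 6), each with 1 of 6 libraries above 0. At 10000 UMIs per cell it was at -0.19 ± 0.34 over all cells, with 2 of 6 libraries above 0. Within clusters it was then at -0.17 ± 0.25, with 1 of 6 above 0.

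Of the 90 ordered pairs, 3 differed between days by the test, with cells split by *Epha4*, *Epha5* or *Efna5*. In these splits 7.02%, 6.22% and 9.74% of all genes differed between days, and a single pair in each split is too few to set against those shares. *Epha5* was 1.17 and 1.36 times as high in cells with *Epha4* at Day 2, 1.68 and 1.54 times at Day 7 and 1.71 and 2.45 times at Day 10. The ratio was lowest in both Day 2 cultures, and the difference between days passed the test (adjusted p = 0.0218, edgeR). The reverse pair, *Epha4* in cells with *Epha5*, also passed, and over all days at 10000 UMIs it was 0.25 and not called (adjusted p = 0.0661), while *Epha5* in cells with *Epha4* was 0.32, against 0.56 and 0.65 at 3000 UMIs. The mitochondrial share of cells with and without *Epha5* also moved with the days, from 2.96% against 2.69% in Day 2 replicate B to 13.2% against 8.84% in Day 10 replicate B. The limit on mitochondrial UMIs for keeping a cell differed too, at 25% for Day 2, 30% for Day 7 and 40% for Day 10. The part of the mitochondrial share and of this limit in these differences was not tested. *Epha3* with *Epha4*, by contrast, had ratios of 1.88 and 2.11, 1.26 and 1.82, and 1.26 and 2.27, with the replicates of a day as far apart as the days.

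**Figure D5:**
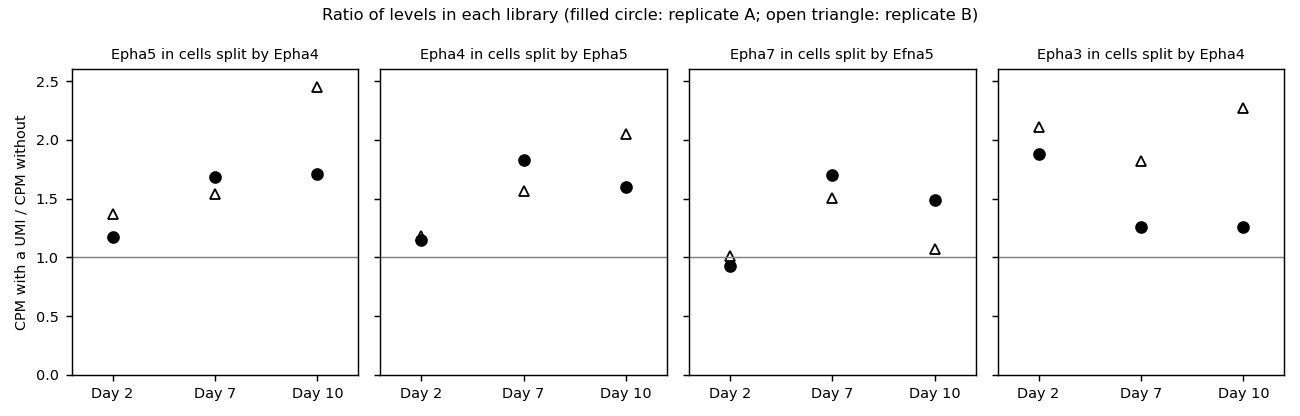
Ratio of the CPM in cells with to that in cells without a UMI of the other gene (vertical axis, from 0; line at 1) for 4 pairs at each day, with circles for replicate A and triangles for replicate B. *Epha5* with *Epha4* is at 1.17 and 1.36 at Day 2 and at 1.71 and 2.45 at Day 10, while *Epha7* with *Efna5* is near 1 at Day 2 and 1.70 and 1.51 at Day 7.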

How the data were processed

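Single-cell RNA-seq counts came from 6 libraries, 2 cultures at each of Day 2, Day 7 and Day 10, made with a 3′ kit. The matrices deposited by the authors hold UMI counts per gene and barcode, with no normalization. Per the labels and the study's methods, reads were aligned with STAR to GRCm38 and counted with Cell Ranger 6.1.2. The limits of the study were applied per library (at least 800 or 1000 UMIs, 200 to 7500 genes and at most 35% or 40% ribosomal UMIs). Mitochondrial UMIs were limited to 25% at Day 2, 30% at Day 7 and 40% at Day 10. No doublet caller was run, so doublets remain among the cells, and antibody staining and images were not analysed here. As one molecule gives one 3′ count, levels were compared within a gene only.

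UMIs were summed per library and tested with edgeR 4.0.16 (filterByExpr, TMM factors of 0.927 to 1.14, quasi-likelihood test, Benjamini-Hochberg adjustment over all genes tested, threshold 0.05), in a single fit to the 6 libraries. The unit is the culture, with n = 2 per day. Replicate letters do not pair the libraries (correlations of deviations -0.0159, -0.0576 and -0.00748). For pairs of members, cells with at least 3000 UMIs were thinned to 3000, split by at least 1 UMI of a member, summed per library and tested with the library as a covariate. Clusters were rebuilt with Seurat 5.3.0 (SCTransform, integration over 3000 features, 35 dimensions, resolution 0.5 at Day 2 and Day 7 and 0.7 at Day 10) without 6, 6 and 7 Eph and ephrin genes that were among the features. Cluster names came from the marker lists and were assigned by hand, with the leading genes in view. DESeq2 1.42.0 was an alternative. Other alternatives were other scaling, no filter on low counts, a replicate block, other sets of cells, thinning depths of 1000 and 10000 UMIs, other clusterings and leaving out each library. Those with 10000 UMIs and with under 10% mitochondrial UMIs, and the test of days, were added after the data had been seen.

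All 10 members were named, other family genes where called, and of 31 partners the 4 with the largest change per comparison. For each member the 5 most raised genes of at least 20 CPM with the same direction in all libraries were ranked. The members and gene lists were chosen with earlier results of these data known. Gene positions are GENCODE positions on GRCm38, and promoters are from RefSeq (GRCm38.p6), where all 10 members were matched by symbol. On simulated data for Day 7 against Day 2 (18561 genes), 72%, 80%, 98% and 88% of genes changed by 1.5, 2, 3 and 4 times were recovered, and for cells split by *Epha7* (13159 genes) 72%, 74%, 98% and 84%. Changes of 1.5 and 3 times were all rises and those of 2 and 4 times all falls, so that size and direction cannot be told apart. All genes of a simulation were given the same spread between replicates.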

Additional observations from a re-analysis of the deposited data

Results flagged for a closer look

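In 3 of 90 ordered pairs the difference between cells with and without a UMI of a member differed between the days by a test of that difference (edgeR, interaction of day and split, adjusted over all genes), where 7.02% (*Epha4*), 6.22% (*Epha5*) and 9.74% (*Efna5*) of all genes also differed. The test was added after the data had been seen. *Epha5* in cells with *Epha4* had log2 fold changes of 0.25 at Day 2, 0.63 at Day 7 and 1.01 at Day 10 (adjusted p = 0.0218). *Epha4* in cells with *Epha5* had 0.13, 0.74 and 0.82 (adjusted p = 0.0132), a pair that over all days was not called at 10000 UMIs (0.25, adjusted p = 0.0661). *Epha7* in cells with *Efna5* had -0.12, 0.60 and 0.33 (adjusted p = 0.024). These rest on 72 to 115, 75 to 83 and 30 to 104 UMIs of the partner per library in the cells with the UMI.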

How the results depend on the processing

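Of 420 values of members between days under alternatives, 378 kept direction and call, 20 lost the call, 8 gained it and 14 changed sign. With each cell thinned to 1000 UMIs, Day 7 against Day 2 turned to 0.19 for *Ephb3*, 0.49 for *Efna5* and 0.28 for *Efnb1*, Day 10 against Day 7 to -0.12 for *Epha4* and 0.12 for *Epha5*, and Day 10 against Day 2 to 0.042 for *Ephb3*. This setting called 7945, 3412 and 8734 of all genes and 2 members between Day 7 and Day 10, and the cause was not tested. With under 10% mitochondrial UMIs *Epha3* was -0.0095 (Day 7 against Day 2) and *Epha5* -0.16 (Day 10 against Day 2). With all deposited barcodes *Epha5* was -0.0025 (Day 10 against Day 2) and *Efnb1* 0.0023 (Day 7 against Day 2), the latter also 0.0026 without the filter on low counts. Leaving out one library gave -0.0242 (without Day 2 replicate A) to 0.128 for *Epha5* (Day 10 against Day 2), and -0.0466 to 0.0377 for *Efnb1* (Day 7 against Day 2), above 0 without replicate B of Day 2 (0.0074) or Day 7.

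Leaving out each library in turn gave 6 to 6, 3 to 7 and 8 to 9 members called, with 3 without Day 7 replicate B and 4 without Day 10 replicate A between Day 7 and Day 10, 11500 to 13226, 6788 to 10558 and 13543 to 14514 of all genes, and 33 to 39 ordered pairs. With the replicate block, 6, 5 and 9 members were called, and besides *Epha3* and *Epha7* between Day 7 and Day 10 it changed no call of a member. The 40 ordered pairs became 8 at 1000 UMIs, 61 at 10000 UMIs and 24 with under 10% mitochondrial UMIs. Values under 12 alternatives were counted for the 40 called ordered pairs and for *Efnb1* and *Efnb2* in both directions. Of these 504 pair values, 407 were unchanged in direction and call, 92 lost the call, 2 gained it and 3 changed sign. Those 3 were, at 1000 UMIs, *Ephb2* with *Epha4* (-0.063) and *Epha4* with *Ephb2* (-0.0604), and at 10000 UMIs *Efnb2* with *Efnb1* (0.035). The other ordered pairs were not in this count, and some of them gained a call or changed sign. *Efna2* in cells with *Epha7*, for example, went from -0.043 to 0.244 at 10000 UMIs (adjusted p = 0.0288, edgeR). Pairs detected together in all libraries went from 20 to 11 at 1000, 31 at 10000 UMIs and 5 within clusters.

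Thinning depths differ in depth and in the cells they keep, so that these cannot be told apart. At 3000 UMIs per cell 2.25% to 17.6% of cells held a UMI of a member, and a cell without one is not shown to lack the gene.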

Other observations

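Cells with *Efna2* held few genes that passed the test in either direction, with 69 higher and 212 lower of 13257 (edgeR), against 1623 and 1901 of 13370 for *Epha4*. Of 10 chondrocyte markers 7 were lower with *Efna2* and of 4 myocyte markers 4 were lower, and *Gdf5*, *Mfap4*, *Igf1*, *Osr1* and *Cat* were the most raised genes, led by *Gdf5* with a log2 fold change of 0.55. Immune markers were lower in cells with each member, 6 of 6 for all members except *Efna2*, where it was 3 of 6. The myocyte genes *Actc1*, *Mylpf*, *Ttn* or *Tnnt1* were among the 3 most lowered genes for all members except *Epha3* and *Ephb2*, for which *Lgals3* was.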
